A study of Mus musculus with 18 samples.

Results

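Untreated RAW264.7 macrophages were compared with untreated mouse liver, the 2 sources that served as baselines for a study of moringa isothiocyanate-1 (MIC-1) in inflammation caused by lipopolysaccharide (LPS). The comparison used 6 of the 18 samples, the 3 control libraries of each source, and the genes that both deposited tables held with a mean FPKM above 1 in at least 1 of the sources. FPKM is the number of fragments per kilobase of transcript per 1000000 sequenced. These genes numbered 11945 of 21441 in both tables, with 7689 above that level in both sources, 2046 in RAW264.7 alone and 2210 in liver alone. RAW264.7 is a mouse macrophage-like line established from a tumour that the Abelson leukaemia virus had induced in a male mouse, and it was grown in DMEM with serum. The RAW264.7 controls received solvent. The liver controls came from male C57BL/6 mice, in a treatment group of 6, that were gavaged with DMSO vehicle for 3 days, injected with saline and killed 16 h later. The labels call all samples wild type and C57BL/6, the line included, although RAW264.7 was derived from a BALB/c tumour. The age of the mice is not given in the sources used here. Nothing in the labels states that the RAW264.7 libraries came from separate cultures, so the P-values measure the spread between these samples, which may be technical. Each source was quantified in its own table. The sources thus differ in cell type, in culture against tissue and in table at the same time, and these cannot be told apart.

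Macrophages are phagocytes that sense microbes, engulf particles and secrete cytokines, and many of their genes are driven by the transcription factor PU.1. Most of the mass of the liver is hepatocytes, which secrete plasma proteins, make bile acids, glucose, urea and ketone bodies, and oxidize foreign compounds. Whole liver also holds Kupffer cells, the resident macrophages, together with sinusoidal endothelial cells, stellate cells, cells of the bile ducts and blood cells. RAW264.7 cells are used as a model of macrophages in general, so the liver libraries contain both the hepatocyte as a contrast and a small share of tissue macrophages as a counterpart.

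The depth estimated from the steps between low FPKM values was 21100000 to 22600000 fragments per RAW264.7 library, and 10200000, 4530000 and 4400000 for liver libraries 1, 2 and 3. A single read on a transcript of 2000 bases was thus worth 0.0400 to 0.0416 TPM in RAW264.7 and between 0.0701 and 0.158 TPM in liver, where TPM is the FPKM value rescaled so that each library sums to 1000000 over the genes in both tables. The RAW264.7 replicates lay closer together than the liver replicates. For genes of 500 to 2000 reads, the squared difference between RAW264.7 libraries 1 and 3 was 2.52 times the sampling variance, whereas the pairs with library 2 gave 11.2 and 13.3. Liver library 1 stood apart from libraries 2 and 3, with 64.1 and 92.0 against 8.17 between those. The median within-group SD of the log2 level was 0.12 in RAW264.7 and 0.35 in liver. Exact zeros were common in both sources. Among the tested genes, 780, 1089 and 1166 were at 0 in liver libraries 1, 2 and 3, and 810, 758 and 817 in those of RAW264.7. A value of 0 in all liver libraries was listed for 46 genes with a mean FPKM above 20 in RAW264.7, and the reverse was not counted. Above 20 FPKM in 1 liver library and at 0 in another were 46 genes, against 1 such gene in RAW264.7. Genes that cells in general use, such as Bak1 and Rbpj, were among those at 0 in liver. A gene at 0 is therefore described here as listed at 0, and no fold is given against it.

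The liver transcriptome was more concentrated in few genes than that of RAW264.7. The 10 most abundant genes took 27.2, 29.0 and 30.6% of the summed level in the liver libraries but 11.8, 12.7 and 11.8% in the RAW264.7 libraries. Between 49 and 56 genes made up 50% of the sum in liver, whereas RAW264.7 needed 190 to 226. The sources did not overlap in either measure. Of the 100 most abundant genes of each source, 18 were shared.

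**Figure D1:**
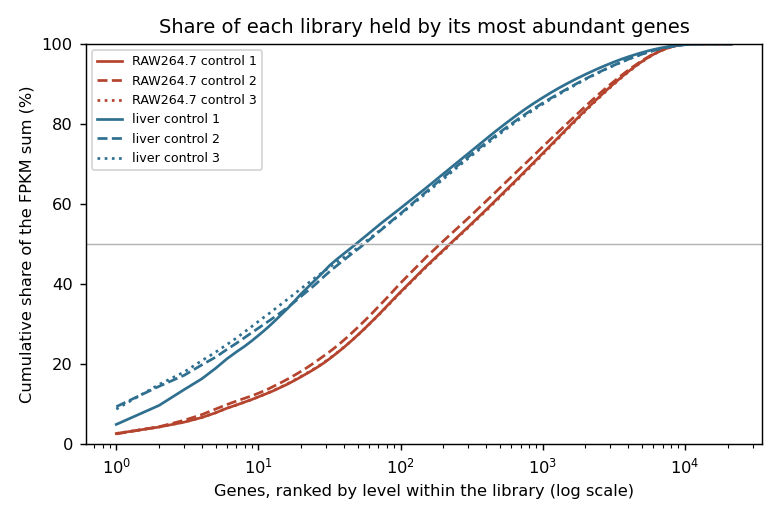
Cumulative share of the summed level (%, y axis) against the rank of the gene on a logarithmic x axis, with 1 line per library. The 3 liver lines lie above the 3 RAW264.7 lines: the top 10 genes hold 27.2 to 30.6% in liver and 11.8 to 12.7% in RAW264.7.

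The most abundant messages included genes typical of each source. In RAW264.7 the leading gene was Spp1, which encodes the secreted phosphoprotein osteopontin, at 26382, 25376 and 26732 TPM in RAW264.7 and 81.5, 129 and 135 TPM in liver (Log2FC 7.86). Lyz2, the lysozyme of macrophages, followed at 16298, 18047 and 16024 TPM in RAW264.7 and 17.6, 40.7 and 33.8 TPM in liver. The ferritin chains Fth1 and Ftl1, the other lysozyme gene Lyz1, the elongation factor Eef1a1, Rplp1, Ppia, Rpl41 and Actb completed the RAW264.7 top 10. Of these, all but Lyz1 had a mean above 500 TPM in liver as well. In liver, Alb, which encodes serum albumin, stood at 3.52, 4.65 and 1.96 TPM in RAW264.7 and 47441, 26118 and 31099 TPM in liver. Apoa1, the main protein of high-density lipoprotein, stood at 2.42, 4.53 and 1.49 TPM in RAW264.7 and 39466, 27488 and 28515 TPM in liver. Apoa2, Apoc1, Apoc4 and Fabp1, the fatty acid binding protein of hepatocytes, were also in the liver top 10, as were Mup11, Mup15 and Mup19 of the major urinary proteins. Mtrnr2l, whose sequence is close to that of a mitochondrial ribosomal RNA, was listed first in liver, at 49209, 93529 and 87454 TPM, and its value is uncertain because reads of the near-identical RNA may have been counted there. The same uncertainty holds for single members of the Mup family, and for Serpina1a to Serpina1e and the lysozyme pair, which share reads within each family.

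Over all genes, 8352 of 11945 (69.9%) passed the threshold of an adjusted P-value under 0.01 with an absolute Log2FC over 1 (limma on log2(TPM + 0.5), Benjamini-Hochberg over all genes tested). RAW264.7 was higher for 5649 genes (47.3%) and liver for 2703 (22.6%). Log2FC is RAW264.7 over liver throughout, and the pseudocount of 0.5 understates the difference of low genes. A gene under the filter level in 1 source could be tested only through the other source, which largely set its direction. All 3 RAW264.7 libraries lay above all 3 liver libraries for 7039 genes (58.9%), and the reverse held for 3282 (27.5%). Between-source differences were large against their error, with a median absolute Log2FC of 2.13 and a median SE of 0.23, and the fold passed 16 in 1225 genes called in RAW264.7 and 928 called in liver (an absolute Log2FC above 4). The median Log2FC of all genes was 1.14 under equal sums, and 0.63 when the 50 most abundant genes of each source were left out of the sum. Scaling by the median of ratios lowered that median to 0.26 and gave 3662 genes higher in RAW264.7 (30.7%) and 3566 in liver (29.9%), 60.5% in all. The share of calls that were higher in RAW264.7 was thus 67.6% with equal sums and 50.7% with the median of ratios. Differences of gene groups near 1 are therefore given beside the median of 1.14 below, together with the count under the other scaling. In a single gene the exact permutation test of 3 against 3 libraries cannot go below P = 0.1.

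**Figure D2:**
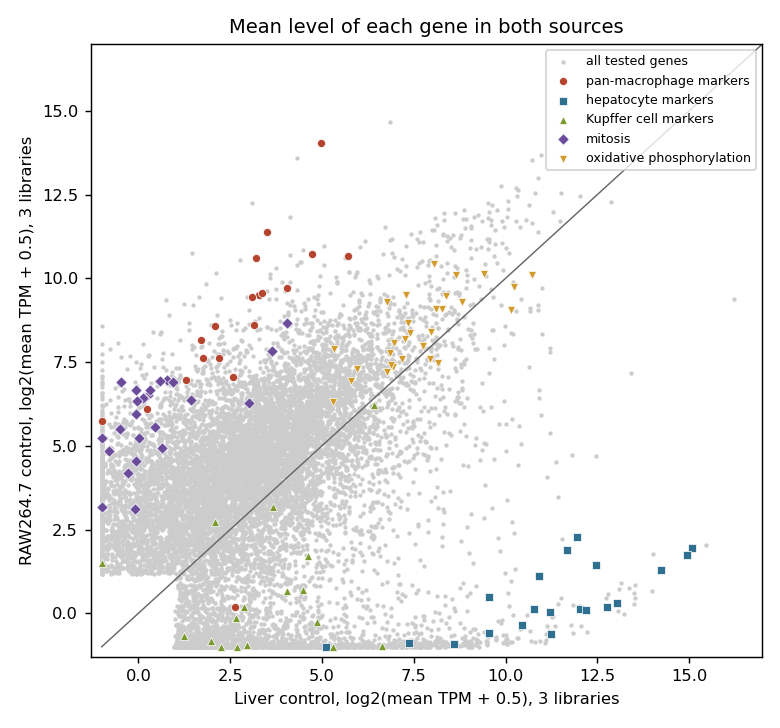
Mean level of each gene in liver control (x axis) against RAW264.7 control (y axis), as log2(TPM + 0.5), with all tested genes in grey and the genes of 5 lists coloured; the line marks equal levels. The hepatocyte markers lie at the lower right, with a median Log2FC of -10.69, the macrophage and mitosis genes at the upper left, with medians of 6.32 and 5.98, and oxidative phosphorylation near the line (median 0.90).

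Across genes, the log2 levels of 2 RAW264.7 libraries correlated at 0.988 to 0.993 (Pearson) and those of 2 liver libraries at 0.897 to 0.931, while a RAW264.7 and a liver library correlated at 0.233 to 0.299. Genes are not independent replicates, and the deeper libraries share their estimate of low genes more closely, so these values are descriptive.

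The largest differences in favour of RAW264.7 included signalling genes as well as macrophage genes. Fxyd2, which encodes the gamma subunit of the sodium-potassium pump, led with 1593, 1998 and 1655 TPM in RAW264.7 and 0.335, 2.92 and 3.48 TPM in liver (Log2FC 9.60, SE 0.60, adjusted P-value 1.65e-05). Tnf, the cytokine tumour necrosis factor, was at 293, 557 and 292 TPM in RAW264.7 and 0 TPM in all 3 liver libraries, and its fitted Log2FC placed it in the top 10, although no fold is given against a listed 0. S100a4, a calcium-binding protein of motile cells, was at 4875, 4862 and 5003 TPM in RAW264.7 and 5.1, 12.4 and 6.43 TPM in liver (Log2FC 9.27). The adaptor gene Stap1, the interferon-inducible gene H28 and Mycn were in this top 10 too, with Lyz1 and Lyz2, and so were Bak1, a mediator of apoptosis, and Rbpj, the DNA-binding partner of Notch, which were listed at 0 in liver. In favour of liver, Mup15 led with 1.53, 1.68 and 0 TPM in RAW264.7 and 8219, 19109 and 21122 TPM in liver (Log2FC -13.48, SE 0.67, adjusted P-value 6.58e-06), with the caution on shared reads given above. Hamp, which encodes hepcidin, the hormone that lowers iron release into plasma, was at 0.574, 0.298 and 0.609 TPM in RAW264.7 and 9642, 9381 and 9816 TPM in liver (Log2FC -13.26, SE 0.15, adjusted P-value 2.56e-07). Its liver values lay within a narrow range, unlike those of Mup15, which were lower in library 1. Apoa2, Apoc1, Apoa1, Mup3, Alb, Apoc4, Apoc3 and Fabp1 completed the liver top 10, with Log2FC from -12.96 to -13.36.

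Promoters of 2 genes of each source are shown as examples of genes that were high in 1 source and low in the other: Alb and Fabp1 for liver, and Tnf and Itgam for the macrophage line. Itgam, the alpha chain of the complement receptor CR3, was at 104, 164 and 106 TPM in RAW264.7 and 1.25, 2.43 and 2.12 TPM in liver (Log2FC 5.68). Each sequence is the 250 bases before the transcription start in RefSeq annotation on GRCm38.p6, which is not the build the authors used. Alb lies at chr5:90460620-90460869 on the plus strand, Fabp1 at chr6:71199629-71199878 on the plus strand, Itgam at chr7:128062390-128062639 on the plus strand and Tnf at chr17:35202008-35202257 on the minus strand. Capitals mark matches, on either strand, to TATAAA (the TATA box), GAGGAAG (a core of PU.1 sites), GTTAAT (part of the site that HNF1 binds), CAAAGTC (part of the site that HNF4 binds), CCAAT (the CCAAT box) and GGGCGG (the core of Sp1 sites), none of which contains another.
Alb: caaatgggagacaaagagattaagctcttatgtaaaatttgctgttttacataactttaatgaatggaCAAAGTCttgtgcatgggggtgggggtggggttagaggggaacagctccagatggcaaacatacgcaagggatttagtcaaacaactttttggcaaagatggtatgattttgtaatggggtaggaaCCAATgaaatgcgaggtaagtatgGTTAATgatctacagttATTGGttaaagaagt
Fabp1: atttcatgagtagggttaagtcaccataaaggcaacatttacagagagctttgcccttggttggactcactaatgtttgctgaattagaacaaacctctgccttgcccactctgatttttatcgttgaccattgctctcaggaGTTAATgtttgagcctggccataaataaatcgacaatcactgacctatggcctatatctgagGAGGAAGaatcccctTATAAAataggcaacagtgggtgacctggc
Itgam: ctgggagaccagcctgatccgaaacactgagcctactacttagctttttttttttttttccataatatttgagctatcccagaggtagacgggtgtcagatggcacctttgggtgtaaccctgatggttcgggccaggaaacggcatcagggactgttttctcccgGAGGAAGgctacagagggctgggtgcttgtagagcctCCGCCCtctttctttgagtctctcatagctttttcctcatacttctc
Tnf: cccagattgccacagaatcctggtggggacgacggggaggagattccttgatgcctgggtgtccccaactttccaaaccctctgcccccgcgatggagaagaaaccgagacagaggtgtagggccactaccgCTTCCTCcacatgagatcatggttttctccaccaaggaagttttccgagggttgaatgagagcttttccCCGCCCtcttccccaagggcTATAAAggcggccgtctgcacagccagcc

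The hepatocyte promoters held GTTAAT in both cases, and that of Alb held CAAAGTC as well, while both macrophage promoters held a GAGGAAG match and the Sp1 core. Fabp1 also carried GAGGAAG, and Fabp1 and Tnf had a TATA box. Among all RefSeq promoters of 300 bases (250 before to 50 after the start, 32851 promoters of 27025 genes), TATAAA was found in 13.6%, GAGGAAG in 13.6%, GTTAAT in 7.10%, CAAAGTC in 4.44%, CCAAT in 37.4% and GGGCGG in 35.7%. Promoters were matched for 4091 of the 5649 genes called in RAW264.7 and for 1832 of the 2703 called in liver. Of these, GGGCGG was present in 64.2% of the RAW264.7 promoters and 48.6% of the liver promoters, TATAAA in 6.99% and 12.0%, GTTAAT in 3.85% and 7.32%, and GAGGAAG in 15.2% and 12.3%. Among 17 promoters of 15 hepatocyte markers, 5 held GTTAAT and 5 held CAAAGTC, and among 17 promoters of 14 macrophage markers, 5 held GAGGAAG. A match is a description of letters and not evidence of binding.

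Markers of macrophages were high in RAW264.7 and low in liver. Of 20 listed, 19 were in the tables and tested, 18 were called higher in RAW264.7 and 1, Mrc1, in liver, with a median Log2FC of 6.32. Csf1r, the receptor for the growth factor on which macrophages depend, was at 751, 685 and 752 TPM in RAW264.7 and 4.6, 11.7 and 11.6 TPM in liver (Log2FC 6.32, SE 0.35, adjusted P-value 1.06e-05). Cd14, the co-receptor that hands LPS to TLR4, was at 2631, 2673 and 2638 TPM in RAW264.7 and 14.3, 12.3 and 5.9 TPM in liver (Log2FC 7.96). The signalling adaptors Tyrobp and Fcer1g, the galectin Lgals3 and the scavenger receptor Msr1 had Log2FC of 6.04, 5.0, 7.45 and 6.61. Emr1, which encodes the macrophage antigen F4/80, was at 67, 71.3 and 66.8 TPM in RAW264.7 and 0, 2.0 and 0 TPM in liver, so that 2 liver libraries were listed at 0. Ptprc, the CD45 antigen of all leukocytes, was at 57.2, 33.2 and 69.5 TPM in RAW264.7 and was listed at 0 in every liver library although other leukocyte genes were detected there. Mrc1, the mannose receptor of tissue macrophages and sinusoidal endothelium, ran the other way at 0.716, 0.397 and 0.769 TPM in RAW264.7 and 3.46, 6.59 and 6.88 TPM in liver (Log2FC -2.41, SE 0.30, adjusted P-value 4.14e-04). Without Mrc1, the summed level of the list in liver was 0.517, 0.828 and 0.720% of its mean sum in RAW264.7. In whole liver, fewer macrophages and less RNA of these genes per macrophage cannot be told apart.

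**Figure D3:**
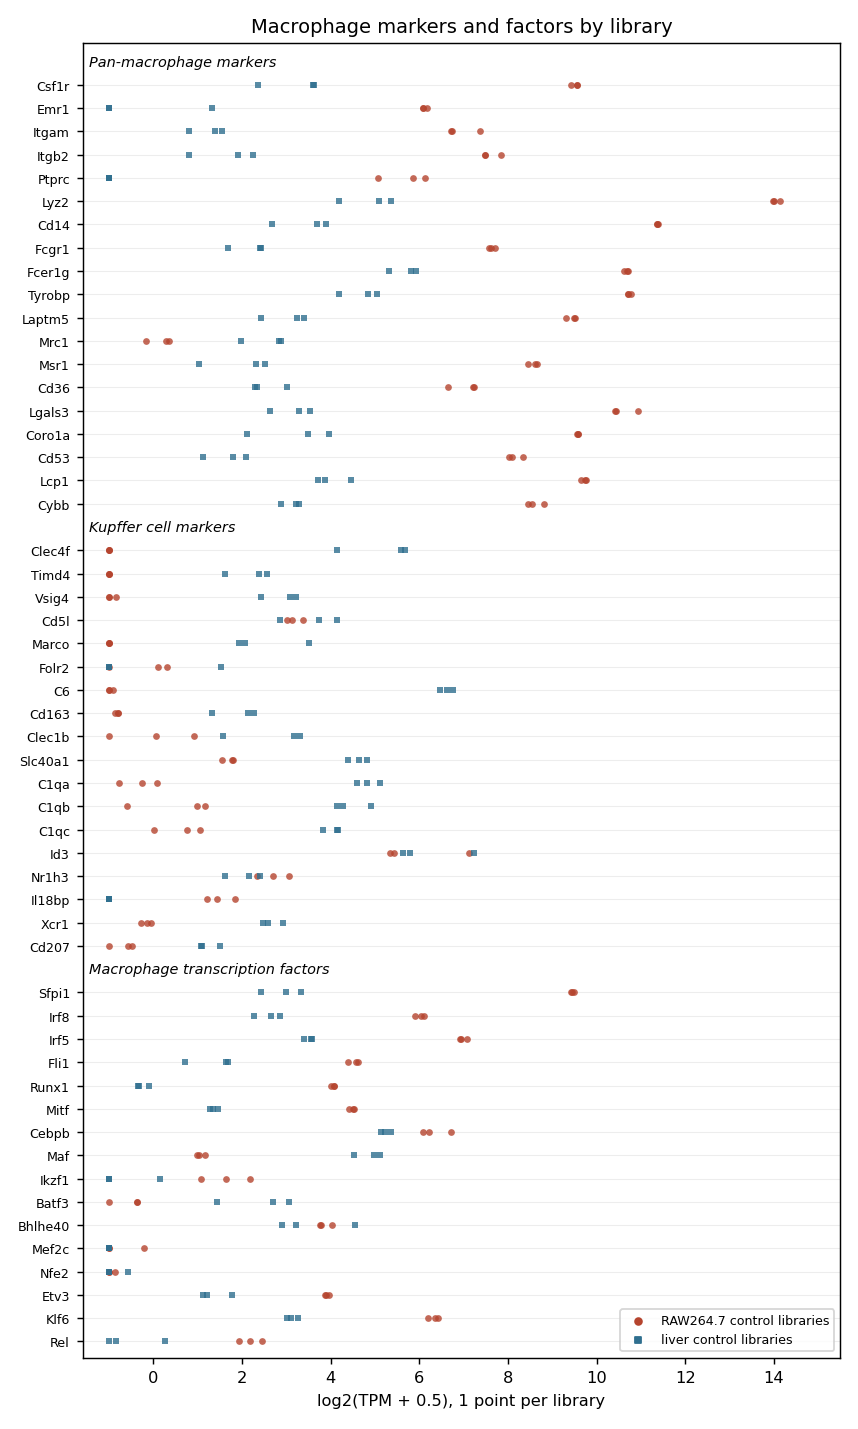
Level in each library of macrophage markers, of Kupffer cell markers and of macrophage transcription factors, as log2(TPM + 0.5) on the x axis, with 1 row per gene and 1 point per library. Points of RAW264.7 lie right of those of liver for Csf1r, Cd14, Lyz2 and Sfpi1 and left of them for Clec4f, C1qa, Mrc1 and Maf, with no overlap, and a point at -1 is a listed 0.

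Among transcription factors of macrophages, 12 of 15 tested were higher in RAW264.7, 2 in liver and 1 was not called, and 10 and 2 under the median of ratios. The share higher in RAW264.7 over all genes was 47.3%, and the list's median Log2FC was 2.72 against 1.14 over all genes. Sfpi1, which encodes PU.1, was at 698, 716 and 681 TPM in RAW264.7 and 4.87, 9.59 and 7.49 TPM in liver (Log2FC 6.53, SE 0.24, adjusted P-value 2.07e-06). Irf5 and Irf8, interferon regulatory factors of myeloid cells, had Log2FC of 3.46 and 3.41, and Runx1 and Mitf 4.30 and 3.11. The factors higher in liver included Maf, a regulator of mature macrophages, at 1.49, 1.75 and 1.54 TPM in RAW264.7 and 22.6, 33.9 and 31.1 TPM in liver (Log2FC -3.81, SE 0.20, adjusted P-value 7.54e-06). Batf3, a factor of dendritic cells, was also higher in liver (Log2FC -2.97). Of the C/EBP factors, Cebpb and Cebpd were higher in RAW264.7 (Log2FC 1.10 and 2.56) with the Log2FC of Cebpb below the all-gene median of 1.14 and not called under the median of ratios or, with a Log2FC below 1, without RAW264.7 library 2. Cebpe did not pass the test, and Cebpa, a factor of hepatocytes and myeloid cells alike, was listed at 0 in all 6 libraries.

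Most Kupffer cell genes were higher in liver. Of 17 tested, 13 were higher in liver, 1 in RAW264.7 and 3 were not called (median Log2FC -2.90). Clec4f, a lectin that marks Kupffer cells in the mouse, was listed at 0 TPM in all 3 RAW264.7 libraries and 17.1, 47.7 and 50.9 TPM in liver. Timd4, a receptor for dying cells, was at 0 TPM in all 3 RAW264.7 libraries and 2.57, 5.43 and 4.75 TPM in liver, and Vsig4, a complement receptor, at 0, 0.060 and 0 TPM in RAW264.7 and 8.82, 4.84 and 7.96 TPM in liver. The liver libraries were the higher ones in each case, without overlap. Clec4f, Timd4 and Vsig4 passed the filter through liver, however, which fixed their direction in advance. C1qa, C1qb and C1qc, which encode the recognition unit of the classical complement pathway, had Log2FC of -5.15, -3.93 and -3.45, with C1qa at 0.564, 0.083 and 0.335 TPM in RAW264.7 and 34.1, 27.5 and 23.5 TPM in liver. Slc40a1, the iron exporter ferroportin, was at 2.98, 2.9 and 2.44 TPM in RAW264.7 and 20.5, 24.4 and 27.5 TPM in liver (Log2FC -2.90). The scavenger receptor Marco and the receptors Mertk and Axl, which take up apoptotic cells, belonged to the list of phagocytic receptors and were also higher in liver, with Mertk at 0.103, 0.124 and 0.0889 TPM in RAW264.7 and 10.3, 10.8 and 10.5 TPM in liver (Log2FC -4.19, SE 0.15, adjusted P-value 1.80e-06). Cd5l, a secreted scavenger protein, did not pass the test at 8.28, 7.54 and 9.8 TPM in RAW264.7 and 6.7, 12.8 and 17.2 TPM in liver, and neither did Id3 and Nr1h3. C6, listed with these markers, is also made by hepatocytes. Il18bp, a decoy for interleukin 18, was the member higher in RAW264.7 (1.79, 2.19 and 3.08 TPM against a listed 0).

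The hepatocyte markers were low but detected in RAW264.7. Of 20 tested, 19 were higher in liver and none in RAW264.7 (median Log2FC -10.69). Their summed level was 14.5 to 32.1 TPM per RAW264.7 library against 113861 to 176142 TPM in liver, or 108 to 238 parts in 1000000 of the mean liver sum. Between 15 and 19 of the 20 genes had a value above 0 in each RAW264.7 library, with Alb at 3.52, 4.65 and 1.96 TPM. The origin of these low levels was not tested. Ttr, the carrier of thyroxine, was at 0.758, 0.922 and 0.501 TPM in RAW264.7 and 11124, 6819 and 7439.9 TPM in liver (Log2FC -12.73, SE 0.23, adjusted P-value 3.11e-07). Serpina1b, an alpha-1-antitrypsin gene, was at 0.698, 0.778 and 0.423 TPM in RAW264.7 and 9749, 5564 and 5718 TPM in liver. Cps1, the entry enzyme of the urea cycle, had narrow liver values at 396, 377 and 397 TPM (Log2FC -9.53). Asgr1, the asialoglycoprotein receptor, did not pass the test, being at 102, 0 and 0 TPM in liver libraries 1, 2 and 3 and listed at 0 in RAW264.7.

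The transcription factors of hepatocytes followed the markers at lower levels. Of 18 tested, 16 were higher in liver and 2, Foxa2 and Mlxipl, were listed at 0 in liver libraries 2 and 3 and were not called (median Log2FC -5.07). Nr1h4, the bile acid receptor FXR, was at 0 TPM in all 3 RAW264.7 libraries and 109.9, 282 and 296 TPM in liver. Onecut2 was at 0.0167, 0.0515 and 0.0403 TPM in RAW264.7 and 75.7, 79.8 and 85.5 TPM in liver (Log2FC -7.23, SE 0.14, adjusted P-value 3.11e-07), and Creb3l3, a factor of fasting metabolism, at 1.32, 1.36 and 0.505 TPM in RAW264.7 and 104, 140.2 and 151 TPM in liver (Log2FC -6.44). Hnf4a, the nuclear receptor at the centre of this network, was at 69.8, 90.7 and 5.98 TPM in liver and listed at 0 in RAW264.7, and liver library 3 was far below the others. Nr1i3, the receptor CAR that senses foreign compounds, was at 0, 0 and 0.121 TPM in RAW264.7 and 58.7, 147 and 169 TPM in liver (Log2FC -7.73). Of the 20 listed factors 11 were at 0 in all RAW264.7 libraries, so the median rests on fitted values that depend on the pseudocount. Those of the 11 that were tested passed the filter through liver, which fixed their direction in advance.

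Secreted proteins of the plasma separated the sources in nearly every gene. Of 31 carrier and acute-phase proteins 30 were higher in liver and 1, Saa1, was not called. Of 19 coagulation factors 16 were higher in liver, and of 19 genes of lipoproteins 16 were, with 1 higher in RAW264.7 (2 without liver library 1). Apoc1 was at 3.04, 4.59 and 3.22 TPM in RAW264.7 and 23646, 50868 and 61593 TPM in liver (Log2FC -13.34, SE 0.38, adjusted P-value 9.37e-07). Among the coagulation genes Proc, which encodes protein C, had a Log2FC of -10.10. Fgb, the beta chain of fibrinogen, was at 2.0, 1.86 and 1.14 TPM in RAW264.7 and 2406, 2410.5 and 941 TPM in liver. Pros1, which encodes protein S, did not pass the test (Log2FC 0.92, and -0.01 under the median of ratios) at 27.3, 27.2 and 26.2 TPM in RAW264.7 and 10.2, 22.2 and 12 TPM in liver, although it passed without liver library 2 (adjusted P-value 0.00083). Apoe, a lipoprotein ligand that macrophages can also secrete, was near 0 in the line at 1.18, 2.37 and 0 TPM in RAW264.7 and 27172, 2777 and 1478 TPM in liver (Log2FC -11.81, SE 1.21, adjusted P-value 1.51e-04), and its liver values spanned a wide range. Scarb1, which takes up cholesterol from high-density lipoprotein, was at 108, 83.2 and 110.1 TPM in RAW264.7 and 48.2, 8.28 and 5.87 TPM in liver and missed the threshold (adjusted P-value 0.0123, and 4.81e-05 without liver library 1).

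Several acute-phase genes varied widely among the liver controls. Saa1, a serum amyloid, was at 246, 2389 and 23.5 TPM in liver libraries 1, 2 and 3, and Saa2 at 691, 7537 and 97.7 TPM. Lcn2, which sequesters bacterial iron carriers, was at 534, 3265 and 60.2 TPM, and Orm2 at 182, 1063 and 51.4 TPM. In each of these 4 genes library 2 was the highest and library 3 the lowest. Metallothionein Mt1 showed the same order, at 1251, 1131 and 1241 TPM in RAW264.7 and 408, 2397 and 132 TPM in liver, so that its RAW264.7 values fell inside the liver range. Of the 317 genes above 500 TPM in a liver library, 23 differed more than 4-fold between liver libraries or were at 0 in one, and library 2 was the highest for 12, library 1 for 8 and library 3 for 3. Of the 312 such genes in RAW264.7, 0 did.

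Complement was mostly higher in liver. Of 26 genes tested, 23 were higher in liver and 3 in RAW264.7. C3, the central component, was at 20.6, 43.2 and 21.8 TPM in RAW264.7 and 1074, 1188 and 847 TPM in liver (Log2FC -5.23, SE 0.31, adjusted P-value 1.37e-05). Serping1, the C1 inhibitor, was at 0.0883, 0.136 and 0.137 TPM in RAW264.7 and 439.8, 366 and 293 TPM in liver (Log2FC -9.19). The 3 genes higher in the line were Cfp, which encodes properdin, at 416, 484 and 405 TPM in RAW264.7 and 18.9, 44.4 and 47.1 TPM in liver (Log2FC 3.65, SE 0.36, adjusted P-value 1.26e-04), and the anaphylatoxin receptors C5ar1 (Log2FC 7.05) and C3ar1 (Log2FC 4.54). C5ar1 was at 146, 129 and 144 TPM in RAW264.7 and 0.501, 0.846 and 0.375 TPM in liver.

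Enzymes of liver metabolism were higher in liver in several groups. The listed P450 enzymes of families 1 to 3 summed to 0.617 to 2.08 TPM per RAW264.7 library. Those tested thus passed the filter through liver, which fixed their direction in advance, so their count is not a test. All 23 tested P450 enzymes of families 1 to 3 were higher in liver, with Cyp3a11 at 0.235, 0.201 and 0 TPM in RAW264.7 and 3191, 1829 and 2279 TPM in liver (Log2FC -11.86, SE 0.26, adjusted P-value 4.29e-07) and Cyp2d9 at 0.199, 0.0511 and 0.0515 TPM in RAW264.7 and 1381, 1245 and 1208 TPM in liver. In the urea cycle and amino acid breakdown 27 of 27 genes were higher in liver. Hpd, an enzyme of tyrosine breakdown, was at 0.179, 0.185 and 0.124 TPM in RAW264.7 and 2909, 3822 and 4223 TPM in liver (Log2FC -12.41, SE 0.17, adjusted P-value 2.56e-07). Ass1, the urea cycle enzyme that macrophages also use to recycle citrulline, kept a level of 25, 27.2 and 25.4 TPM in RAW264.7 against 5749, 2446 and 2487 TPM in liver. Oat, which metabolizes ornithine, had the smallest difference of this group at 134, 101 and 132 TPM in RAW264.7 and 371, 447 and 529 TPM in liver (Log2FC -1.87). All 14 tested genes of bile acid synthesis and transport were higher in liver as well. Slco1b2, an importer of bile acids, was at 0.0235, 0 and 0.0243 TPM in RAW264.7 and 191, 310.3 and 331 TPM in liver (Log2FC -9.03), while Cyp27a1, a sterol hydroxylase that macrophages express too, was at 20.2, 22.7 and 19 TPM in RAW264.7 and 293, 587 and 633 TPM in liver (Log2FC -4.50).

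Both ends of the liver lobule were represented. All 11 tested pericentral genes were higher in liver, among them Glul, which makes glutamine, at 39.9, 47 and 41.7 TPM in RAW264.7 and 548, 362 and 395 TPM in liver (Log2FC -3.31, SE 0.18, adjusted P-value 9.91e-06). All 12 periportal genes were too, among them Pck1, the gatekeeper of gluconeogenesis, at 0.149, 0.0307 and 0.154 TPM in RAW264.7 and 632, 971 and 979 TPM in liver (Log2FC -10.44). The animals were male. All 14 male-biased genes were above the filter and higher in liver, with Mup20 at 10118, 5591 and 5391 TPM, while 2 of 12 female-biased genes passed the filter, and Cyp2a4 was at 1.09, 2.7 and 1.12 TPM. Of the Y-linked genes, Ddx3y was at 20.5, 14.6 and 21.8 TPM in RAW264.7 and 22.4, 30.6 and 37.3 TPM in liver and did not pass the test (under the median of ratios it did, at -1.58). Eif2s3y was at 69.4, 69.9 and 74.5 TPM in RAW264.7 and 5.36, 8.97 and 0 TPM in liver (Log2FC 4.57), Uty at 4.87, 4.2 and 2.69 TPM in the line and listed at 0 in liver, and Kdm5d at 6.06, 5.36 and 6.36 TPM in RAW264.7 and 2.42, 1.54 and 1.64 TPM in liver (Log2FC 1.46, not called under the median of ratios). Eif2s3y lost its call without any 1 RAW264.7 library or without liver library 1 (adjusted P-value 0.0151 to 0.0313). Xist, the RNA of the inactive X chromosome, was at 0.0416, 0.0171 and 0.030 TPM in RAW264.7 and 0.418, 0.888 and 1.05 TPM in liver, below the filter.

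Where an enzyme has several genes, the sources usually held different ones. Aldoa, the aldolase of most tissues, was at 2667, 2669 and 2633 TPM in RAW264.7 and 174, 222 and 217 TPM in liver (Log2FC 3.70, SE 0.12, adjusted P-value 1.51e-06). Pkm2, the pyruvate kinase of proliferating tissues as the table names it, was at 3698, 3616 and 3729.8 TPM in RAW264.7 and 8.19, 27.9 and 15.1 TPM in liver (Log2FC 7.88), against Pklr at 0, 0 and 0.0306 TPM in RAW264.7 and 105, 58.8 and 63.4 TPM in liver (Log2FC -7.17). Glucose transporters followed the same reciprocal pattern. Hk1, Hk2 and Hk3 had Log2FC of 5.51, 5.08 and 6.18, all higher in the line. Slc2a1 was at 136, 140.1 and 136 TPM in RAW264.7 and 8.35, 8.03 and 9.63 TPM in liver, and Slc2a2, the glucose transporter of hepatocytes, at 0.0307, 0 and 0 TPM in RAW264.7 and 72.4, 114 and 150.3 TPM in liver. For glycogen, the genes known from muscle and brain were the ones of the line. Gys1 (Log2FC 3.16) and Pygb (Log2FC 4.23) were higher in RAW264.7, and Gys2 (Log2FC -7.10) and Pygl (Log2FC -7.46) in liver, with Pygl at 88.9, 91 and 93 TPM.

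**Figure D4:**
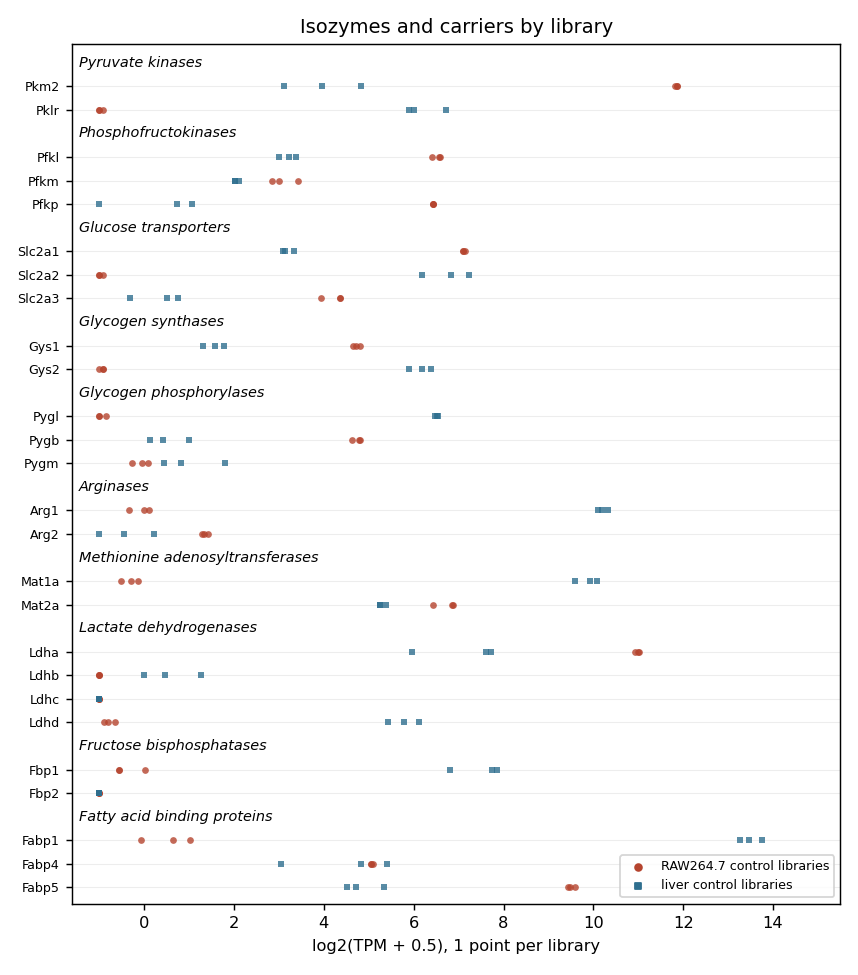
Level of isozyme genes in each library, as log2(TPM + 0.5) on the x axis, with 1 row per gene, grouped by family, and 1 point per library. Within pyruvate kinases and glycogen phosphorylases the gene that is high in 1 source is low in the other (Pkm2 Log2FC 7.88 against Pklr -7.17).

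Nitrogen and methyl metabolism were divided in the same way. Gls2, a glutaminase of liver, was at 0.515, 0.661 and 0.799 TPM in RAW264.7 and 118, 77.5 and 29.2 TPM in liver (Log2FC -5.82). Arg1, the arginase of the urea cycle and of alternatively activated macrophages, was at 0.502, 0.574 and 0.289 TPM in RAW264.7 and 1283, 1170.2 and 1095 TPM in liver (Log2FC -10.28, SE 0.16, adjusted P-value 2.56e-07), and Arg2, the mitochondrial form, was low in both at 1.95, 2.19 and 2.02 TPM in RAW264.7 and 0, 0.667 and 0.23 TPM in liver (Log2FC 1.76, a call lost without any 1 RAW264.7 library, with adjusted P-values of 0.01 to 0.0127). Mat1a, the liver gene for making the methyl donor S-adenosylmethionine, was at 0.20, 0.411 and 0.322 TPM in RAW264.7 and 1087, 968 and 766 TPM in liver, and its counterpart Mat2a at 115, 85.8 and 117 TPM in RAW264.7 and 37.5, 37.6 and 41.4 TPM in liver (Log2FC -10.17 and 1.43, the latter not called under the median of ratios). Hmgcs1, a cytosolic synthase which serves cholesterol synthesis, did not pass the test (Log2FC 0.59, and -0.31 under the median of ratios). Fabp1 belonged to liver at 1.06, 1.54 and 0.449 TPM in RAW264.7 and 13880.2, 9792 and 11268 TPM in liver (Log2FC -12.96), Fabp5 to the line at 773, 687 and 711 TPM in RAW264.7 and 39.9, 25.8 and 22.4 TPM in liver (Log2FC 4.64), and Fabp4 overlapped between them at 32.7, 33.8 and 32.6 TPM in RAW264.7 and 7.79, 41.8 and 27.8 TPM in liver. The carnitine palmitoyltransferase Cpt1a was an exception to the reciprocal pattern, since Cpt1a (Log2FC -1.10) and Cpt1b (Log2FC -2.51) were both higher in liver and Cpt1c did not pass the filter. Without RAW264.7 library 1 the Log2FC of Cpt1a was under 1 in size, which ended its call.

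Iron genes showed storage in both sources and hormone in one. Fth1, the ferritin heavy chain, was at 11455, 16118 and 11584 TPM in RAW264.7 and 2225, 1919 and 1809 TPM in liver (Log2FC 2.70), and Ftl1, the light chain, at 11701, 14269.7 and 11779 TPM in RAW264.7 and 9979, 8159 and 8641 TPM in liver. Ftl1 did not pass the test, and its sign depended on the scaling (Log2FC 0.49, and -0.46 under the median of ratios). Tfrc, the transferrin receptor through which dividing cells import iron, was at 125, 79.2 and 131 TPM in RAW264.7 and 4.05, 4.73 and 5.93 TPM in liver (Log2FC 4.35), and Trf, which encodes transferrin, at 3.17, 3.96 and 2.4 TPM in RAW264.7 and 4002, 3441 and 2384 TPM in liver (Log2FC -9.79).

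Glycolysis was higher in the line. Of 19 genes tested, 18 were called in RAW264.7 and 0 in liver, with a median Log2FC of 3.90 against 1.14 over all genes. Ldha, which makes lactate, was at 2052, 1941 and 2066 TPM in RAW264.7 and 209, 196 and 61.8 TPM in liver (Log2FC 3.88, SE 0.47, adjusted P-value 3.39e-04), and Slc16a3, which exports it, at 213, 206 and 214 TPM in RAW264.7 and 0.348, 0.882 and 0.913 TPM in liver. Gapdh, which the study used as its reference in quantitative PCR, did not pass at 1381, 1480.01 and 1508 TPM in RAW264.7 and 567, 109 and 46.9 TPM in liver (adjusted P-value 0.0108), and its liver values spread over a wide range. Without liver library 1 it passed, and 19 of 19 were called. In glucose production 14 of 15 genes were higher in liver. G6pc, which releases glucose from its phosphate, was at 194, 259 and 278 TPM and listed at 0 in RAW264.7. Slc37a4, its transporter, was above 0 in 1 library of each source and carries no direction.

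Fatty acid oxidation was mixed. Of 23 genes 15 were higher in liver, 3 in RAW264.7 and 5 were not called (median Log2FC -1.38). Acaa1b, a thiolase of peroxisomes, was at 9.82, 9.85 and 9.92 TPM in RAW264.7 and 679.9, 1138 and 1345 TPM in liver (Log2FC -6.61, SE 0.26, adjusted P-value 2.67e-06), whereas its paralogue Acaa1a was at 196, 209 and 188 TPM in RAW264.7 and 75, 31.7 and 16.1 TPM in liver (Log2FC 2.53, SE 0.52, adjusted P-value 0.00418), and reads may have been divided between these near-identical genes. Hadhb was also higher in RAW264.7 (Log2FC 1.01), near the all-gene median, and under the median of ratios no gene of this list was higher in RAW264.7. The call of Hadhb was lost without any 1 library other than liver 1 (adjusted P-value up to 0.0282), and that of Acaa1a without a RAW264.7 library or liver library 2 (0.0165 to 0.0217).

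RAW264.7 cells carried the messages of dividing cells. All 25 genes of mitosis were higher in the line, with a median Log2FC of 5.98, and of 26 genes of DNA replication 24 were, with 1 higher in liver. Ccnb1, the cyclin of mitotic entry, was at 128, 103 and 126 TPM in RAW264.7 and 0, 0.26 and 0.404 TPM in liver (Log2FC 7.41, SE 0.25, adjusted P-value 1.70e-06). Ube2c, which loads ubiquitin for the anaphase-promoting complex, was at 413, 391 and 409 TPM in RAW264.7 and 13.4, 17 and 17.9 TPM in liver (Log2FC 4.62), and Mcm6, a subunit of the replicative helicase, at 164, 133 and 164 TPM in RAW264.7 and 1.15, 1.3 and 1.14 TPM in liver (Log2FC 6.50). Mki67, the proliferation antigen, had values of 64.7, 49.5 and 69.4 TPM in RAW264.7 and 0.155, 0.51 and 0.703 TPM in liver. RAW264.7 library 2 was the lowest RAW264.7 library for Ccnb1, Ube2c, Mcm6 and Mki67, and its values stayed far above liver. Tyms, thymidylate synthase, was the replication gene higher in liver, at 29.7, 25.7 and 31.5 TPM in RAW264.7 and 47.1, 114 and 91.2 TPM in liver (Log2FC -1.43, SE 0.33, adjusted P-value 0.0068). Its call was lost when any library other than liver 1 was left out (adjusted P-value 0.0183 to 0.032).

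Mycn was the leading gene of growth control. It encodes N-Myc, and it was at 634, 658 and 658 TPM in RAW264.7 and 0.689, 0.691 and 2.15 TPM in liver (Log2FC 8.71, SE 0.33, adjusted P-value 2.39e-06), whereas Myc was at 1.45, 2.96 and 1.61 TPM in RAW264.7 and 3.93, 2.51 and 2.08 TPM in liver and did not pass the test. Ccnd1 was at 319, 292 and 328 TPM in RAW264.7 and 4.67, 3.48 and 4.88 TPM in liver (Log2FC 6.03), Cdk4 at 744, 628 and 719 TPM in RAW264.7 and 12.7, 9.54 and 6.2 TPM in liver (Log2FC 6.18), and Ccnd2 ran the other way at 1.95, 2.85 and 1.86 TPM in RAW264.7 and 9.85, 9.73 and 9.02 TPM in liver (Log2FC -1.90). Trp53, the tumour suppressor p53, was at 288, 255 and 294 TPM in RAW264.7 and 28.6, 25.3 and 27.3 TPM in liver (Log2FC 3.34), and its target Cdkn1a, the inhibitor p21, at 342, 405 and 336 TPM in RAW264.7 and 9.03, 18.9 and 6.95 TPM in liver (Log2FC 5.02). Abl1, the cellular counterpart of the oncogene of the Abelson virus, was at 11, 10.5 and 10.7 TPM in RAW264.7 and 4.89, 10.6 and 7.66 TPM in liver and did not pass the test. Of the 14 genes in this list 7 were higher in RAW264.7, 1 in liver and 6 were not called, a share near the 47.3% of all genes. The median Log2FC was 1.26 against 1.14 over all genes, and the counts were 6 and 2 under the median of ratios. Viral sequence is not measured in these tables.

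Phagocyte equipment was higher in the line. All 6 genes of the NADPH oxidase, which makes superoxide, were called in RAW264.7 (median Log2FC 5.79), with Cyba at 1058, 1255 and 1027 TPM in RAW264.7 and 12.4, 11.5 and 10.9 TPM in liver (Log2FC 6.52, SE 0.12, adjusted P-value 3.11e-07). Of 30 lysosomal genes 26 were higher in RAW264.7 and 2 in liver, and 19 and 3 under the median of ratios. Ctsd, an aspartic protease, was at 2831, 3163 and 2835 TPM in RAW264.7 and 125, 98.3 and 88.1 TPM in liver (Log2FC 4.83), and Ctss, the cathepsin that trims the invariant chain, at 1147, 1533 and 1161 TPM in RAW264.7 and 9.61, 21.5 and 7.97 TPM in liver (Log2FC 6.68). The members higher in liver were Ctsh, an aminopeptidase, at 0.403, 0.104 and 0 TPM in RAW264.7 and 71.3, 34.7 and 20.3 TPM in liver (Log2FC -5.85) and Atp6v0c, which encodes the proton channel of the V-ATPase, at 0.93, 0 and 0 TPM in RAW264.7 and 105, 29.9 and 18.1 TPM in liver. Atp6v0c serves the acidification of lysosomes in cells of all kinds, and 2 RAW264.7 libraries listed it at 0. Of 23 phagocytic and pattern recognition receptors 16 were higher in RAW264.7, 4 in liver and 3 were not called, with a median Log2FC of 3.73 against 1.14 over all genes. Clec4d, a C-type lectin, was at 438, 564 and 440.3 TPM in RAW264.7 and 0.669, 1.43 and 1.73 TPM in liver (Log2FC 8.13), and Trem2, a lipid receptor, at 328, 348 and 338 TPM in RAW264.7 and 0.99, 1.2 and 0.93 TPM in liver (Log2FC 7.79, SE 0.13, adjusted P-value 2.56e-07). Tlr2, Tlr7 and Tlr13 had Log2FC of 6.82, 6.08 and 5.39, while Tlr5, the receptor for flagellin, was at 1.78, 1.39 and 2.01 TPM in liver and listed at 0 in the line, joining Marco, Mertk and Axl.

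The receptor complex for LPS, the stimulus of the study, was unequally divided. Of 27 genes from the receptor to NF-kB, 15 were higher in RAW264.7, 2 in liver and 10 were not called, and under the median of ratios 10 and 5. Over all genes 47.3% were higher in RAW264.7, and the median Log2FC was 1.46 in this list against 1.14 over all genes. Without liver library 1 the counts were 14 and 4. Tlr4, the receptor itself, was at 16.6, 17 and 18.5 TPM in RAW264.7 and 0.331, 0.728 and 1.02 TPM in liver (Log2FC 3.95, SE 0.25, adjusted P-value 1.78e-05), and its adaptor Myd88 at 163, 128 and 160.5 TPM in RAW264.7 and 10.8, 19.3 and 12.9 TPM in liver (Log2FC 3.38). Ly96, which encodes the MD-2 subunit that binds LPS, was at 32.6, 39.4 and 35.1 TPM in RAW264.7 and 16.4, 21.1 and 21.3 TPM in liver and did not pass. Lbp, the plasma protein that carries LPS to CD14, was at 0, 0.0321 and 0.0323 TPM in RAW264.7 and 39.4, 39.4 and 26.1 TPM in liver (Log2FC -6.06, SE 0.21, adjusted P-value 1.80e-06), and the adaptor Tirap at 6.44, 6.15 and 6.3 TPM in RAW264.7 and 31.6, 33.5 and 34.5 TPM in liver (Log2FC -2.31). Of the kinases downstream, Irak1 was at 43.1, 39.6 and 42.6 TPM in RAW264.7 and 71.6, 58.8 and 61.6 TPM in liver. Ikbkb was at 32.1, 27 and 31.1 TPM in RAW264.7 and 11.6, 26.7 and 27.5 TPM in liver. Chuk was at 32.2, 26.8 and 30.6 TPM in RAW264.7 and 32.2, 60.5 and 67.6 TPM in liver. Under equal sums Irak1, Ikbkb and Chuk were not called, and under the median of ratios Irak1 was called higher in liver (-1.55). Of the NF-kB subunits, Rela, at 54.2, 51.8 and 52.6 TPM in RAW264.7 and 23.2, 23.6 and 24.5 TPM in liver, had a Log2FC of 1.14, equal to the all-gene median and not called under the median of ratios, whereas Nfkb1 had 3.0 and Relb was at 25, 22.7 and 18.9 TPM in the line and listed at 0 in liver. The inhibitor Nfkbia was at 199, 324 and 207 TPM in RAW264.7 and 172, 145 and 143 TPM in liver, highest in RAW264.7 library 2, and was not called (Log2FC 0.63, and -0.32 under the median of ratios).

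Cytokine messages were present in the line without LPS. Of 26 genes tested, 15 were higher in RAW264.7, 6 in liver and 5 were not called, and 12 and 7 under the median of ratios. The share higher in RAW264.7 over all genes was 47.3%, and the list's median Log2FC was 2.80 against 1.14 over all genes. Ccl3 and Ccl4, chemokines that draw monocytes, were at 1200.3, 1815 and 1315 TPM and 627, 861 and 606 TPM in RAW264.7 and at 6.63, 29.3 and 25.4 TPM and 0.788, 2.69 and 4.45 TPM in liver (Log2FC 6.33 and 7.98). Cxcl2, which draws neutrophils, was at 155, 354 and 178 TPM in RAW264.7 and 1.85, 6.95 and 5.63 TPM in liver (Log2FC 5.50), and Ccl2 at 180.2, 342 and 197 TPM in RAW264.7 and 3.1, 7.3 and 6.23 TPM in liver (Log2FC 5.33). RAW264.7 library 2 was the highest of the line for Tnf, Ccl2, Ccl3, Ccl4, Cxcl2 and Il1b. Il1b itself was low in both sources, at 3.56, 9.83 and 3.3 TPM in RAW264.7 and 1.54, 0.941 and 2.92 TPM in liver, and did not pass, and Il6 was below the filter at 0, 0.234 and 0 TPM in RAW264.7 and 0 TPM in all 3 liver libraries. Il10 was at 4.4, 5.06 and 4.64 TPM in RAW264.7 and 0.343, 0 and 0.252 TPM in liver (Log2FC 2.93), and Tgfb1, the cytokine TGF-beta 1, at 251, 252 and 253 TPM in RAW264.7 and 4.97, 7.6 and 5.14 TPM in liver (Log2FC 5.32, SE 0.18, adjusted P-value 1.60e-06).

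Of the cytokines 6 ran the other way. Cxcl12, which retains leukocytes and is made by stromal cells, was at 0, 0.139 and 0 TPM in RAW264.7 and 86.4, 55.7 and 67.2 TPM in liver (Log2FC -6.99, SE 0.22, adjusted P-value 1.32e-06). Cxcl1 was at 16.3, 19.4 and 13.3 TPM in liver and listed at 0 in the line, and Cxcl9, a target of interferon-gamma, at 0.296, 0.388 and 0.195 TPM in RAW264.7 and 21.7, 43.3 and 8.89 TPM in liver (Log2FC -4.73). Il1a, Ccl24 and Cxcl13 were below 6 TPM in every liver library.

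In the inflammasome list 8 of 14 genes were higher in RAW264.7, 1 in liver and 5 were not called, against 47.3% of all genes higher in RAW264.7. The median Log2FC was 1.57 against 1.14 over all genes, and the counts were 7 and 1 under the median of ratios. Aim2, a sensor of DNA, lost its call without any 1 RAW264.7 library or liver library 2 (adjusted P-value 0.0137 to 0.0213). Casp1, the protease that matures interleukin 1 beta, was at 113, 117 and 113 TPM in RAW264.7 and 2.28, 7.74 and 6.33 TPM in liver (Log2FC 4.41, SE 0.41, adjusted P-value 9.51e-05), and Gsdmd, the pore protein it cleaves, at 127, 160.4 and 129 TPM in RAW264.7 and 25.6, 39 and 42.3 TPM in liver (Log2FC 1.97). Nlrp3 was at 2.21, 4.16 and 4.58 TPM in the line and listed at 0 in liver. Pycard, which encodes the adaptor ASC that joins sensors to Casp1, was at 0.15, 0.0771 and 0.116 TPM in RAW264.7 and 1.31, 1.85 and 0.294 TPM in liver and fell below the filter, so the line had Casp1 and Nlrp3 with little message of the adaptor. Nlrp12 was the member higher in liver, at 0.0177, 0 and 0.0183 TPM in RAW264.7 and 8.69, 11.5 and 11.2 TPM in liver (Log2FC -4.41).

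Antigen presentation differed by class. For class II, 5 of 8 genes were higher in liver and 3 in RAW264.7. H2-Aa was at 24.2, 39.8 and 58.4 TPM in liver and listed at 0 in the line, and H2-Ab1 at 0.215, 0.444 and 0.149 TPM in RAW264.7 and 21.2, 54.9 and 52.8 TPM in liver (Log2FC -5.72, SE 0.41, adjusted P-value 2.84e-05). Cd74, the invariant chain that accompanies class II, was nevertheless higher in RAW264.7, at 317, 481 and 309 TPM in RAW264.7 and 44.4, 48.3 and 51.5 TPM in liver (Log2FC 2.90, SE 0.20, adjusted P-value 2.39e-05), as were H2-DMa and H2-DMb2, the latter not without RAW264.7 library 2 or 3 or liver library 2 or 3 (adjusted P-value 0.0113 to 0.0126). Ciita, the class II activator, was listed at 0 in all libraries. For class I, 10 of 14 were higher in RAW264.7, 2 in liver and 2 were not called, and 7 and 3 under the median of ratios. The class I median Log2FC was 1.90 against 1.14 over all genes. H2-D1 was at 1076, 1369.8 and 1014 TPM in RAW264.7 and 357, 317 and 334 TPM in liver (Log2FC 1.77, not called under the median of ratios), while H2-K1 was at 303, 374 and 291 TPM in RAW264.7 and 889, 1241 and 1407 TPM in liver (Log2FC -1.85). B2m, the light chain they share, was at 4717, 5238 and 4929 TPM in RAW264.7 and 7475, 7118 and 7743 TPM in liver and was not called (under the median of ratios it was, at -1.54). H2-Q10, which encodes a class I molecule that liver secretes, was at 4.06, 5.05 and 3.4 TPM in RAW264.7 and 2582, 2877 and 3397 TPM in liver (Log2FC -9.31, SE 0.18, adjusted P-value 3.11e-07). The class I genes are polymorphic and similar to one another, so reads may have been divided between them. The line and the mice also differ in strain of origin, and the part of this in the class I and class II values was not tested.

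The Nrf2 pathway, on which isothiocyanates are known to act, was divided between the sources. Of 28 genes 12 were higher in RAW264.7, 14 in liver and 2 were not called, with a median Log2FC of -0.22 against 1.14 over all genes, and under the median of ratios 6 and 14. Nfe2l2, which encodes Nrf2, was at 108, 89 and 115 TPM in RAW264.7 and 43.8, 64.4 and 73.9 TPM in liver and not called. Its inhibitor Keap1 was at 65.9, 62.4 and 64 TPM in RAW264.7 and 21.5, 25.2 and 22.9 TPM in liver (Log2FC 1.45, not called under the median of ratios at 0.51). Conjugation of glutathione belonged to liver. Gstp1 was at 121, 191 and 121 TPM in RAW264.7 and 17301, 7634 and 8144 TPM in liver (Log2FC -6.18, SE 0.37, adjusted P-value 1.33e-05), Gstm1 at 23, 32.5 and 20.8 TPM in RAW264.7 and 5854, 5332 and 5718 TPM in liver (Log2FC -7.79), and Gsta3 at 757, 389.6 and 493 TPM in liver and listed at 0 in the line. Catalase, Cat, was at 46.3, 47.3 and 49.8 TPM in RAW264.7 and 1463, 1098 and 1379 TPM in liver (Log2FC -4.76), and Nqo1, a quinone reductase often used as the readout of Nrf2, was low in both, at 0.0532, 0.329 and 0.166 TPM in RAW264.7 and 5.24, 11.1 and 8.11 TPM in liver (Log2FC -3.62). Of the genes for glutathione synthesis, Gclc (Log2FC -2.25) and Gclm (Log2FC -1.24) were higher in liver too. Slc7a11 and Gsr were called higher in RAW264.7 under equal sums, and Me1 in liver, so functions did not separate cleanly. The genes that supply NADPH by the pentose phosphate pathway were higher in the line. G6pdx was at 225, 228 and 229 TPM in RAW264.7 and 3.96, 3.62 and 3.51 TPM in liver (Log2FC 5.76, SE 0.11, adjusted P-value 3.11e-07), and Pgd at 366, 279 and 405 TPM in RAW264.7 and 2.25, 15.1 and 0 TPM in liver (Log2FC 6.96). Hmox1, haem oxygenase, was at 317, 492 and 322 TPM in RAW264.7 and 9.89, 14.8 and 7.86 TPM in liver (Log2FC 5.07), and Prdx1, a peroxiredoxin, at 1282, 1471 and 1241 TPM in RAW264.7 and 434, 256 and 224 TPM in liver (Log2FC 2.18, not called under the median of ratios).

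In genes that all cells use, the counts of calls depended on the scaling. Of 36 ribosomal protein genes 33 were higher in RAW264.7, 2 in liver and 1 was not called, with a median Log2FC of 2.27, and 22 and 2 under the median of ratios, with a median of 1.32. Their sum was 95147 to 104567 TPM in RAW264.7 and 24303 to 28115 TPM in liver. Rpl3 was at 2287, 2358 and 2193 TPM in RAW264.7 and 128, 119 and 95.6 TPM in liver (Log2FC 4.32), and Rpl28 at 5354, 6135 and 5328 TPM in RAW264.7 and 3282, 4355 and 4953 TPM in liver (Log2FC 0.44, and -0.52 under the median of ratios). Rpl30 and Rps18 were the genes higher in liver (Log2FC -2.19 and -1.76). Processed copies in the genome can share reads with ribosomal protein genes on either side, and their part was not tested. Of 25 proteasome genes 18 were higher in RAW264.7 and 0 in liver (median 1.57 against 1.14 over all genes), and 9 and 2 under the median of ratios (median 0.61). For oxidative phosphorylation 10 of 29 were higher in RAW264.7, 1 in liver and 18 were not called (median 0.90, below that of all genes), and 3 and 5 under the median of ratios, where the median was -0.06. Atp5b, the catalytic subunit of ATP synthase, was at 1452, 1218 and 1436 TPM in RAW264.7 and 323, 236 and 239 TPM in liver (Log2FC 2.37), and Uqcrb of complex III at 546, 482 and 555 TPM in RAW264.7 and 1033, 1149 and 1248 TPM in liver (Log2FC -1.11). The actin cytoskeleton was higher in the line under both scalings, for 25 of 26 genes and for 24, with Capg at 1503, 1522 and 1509.6 TPM in RAW264.7 and 4.22, 7.19 and 7.44 TPM in liver (Log2FC 7.84, SE 0.22, adjusted P-value 8.95e-07). Fscn1, which bundles actin, was the exception, at 0.295, 0.394 and 0.427 TPM in RAW264.7 and 2.11, 5.38 and 3.24 TPM in liver (Log2FC -2.15).

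**Figure D5:**
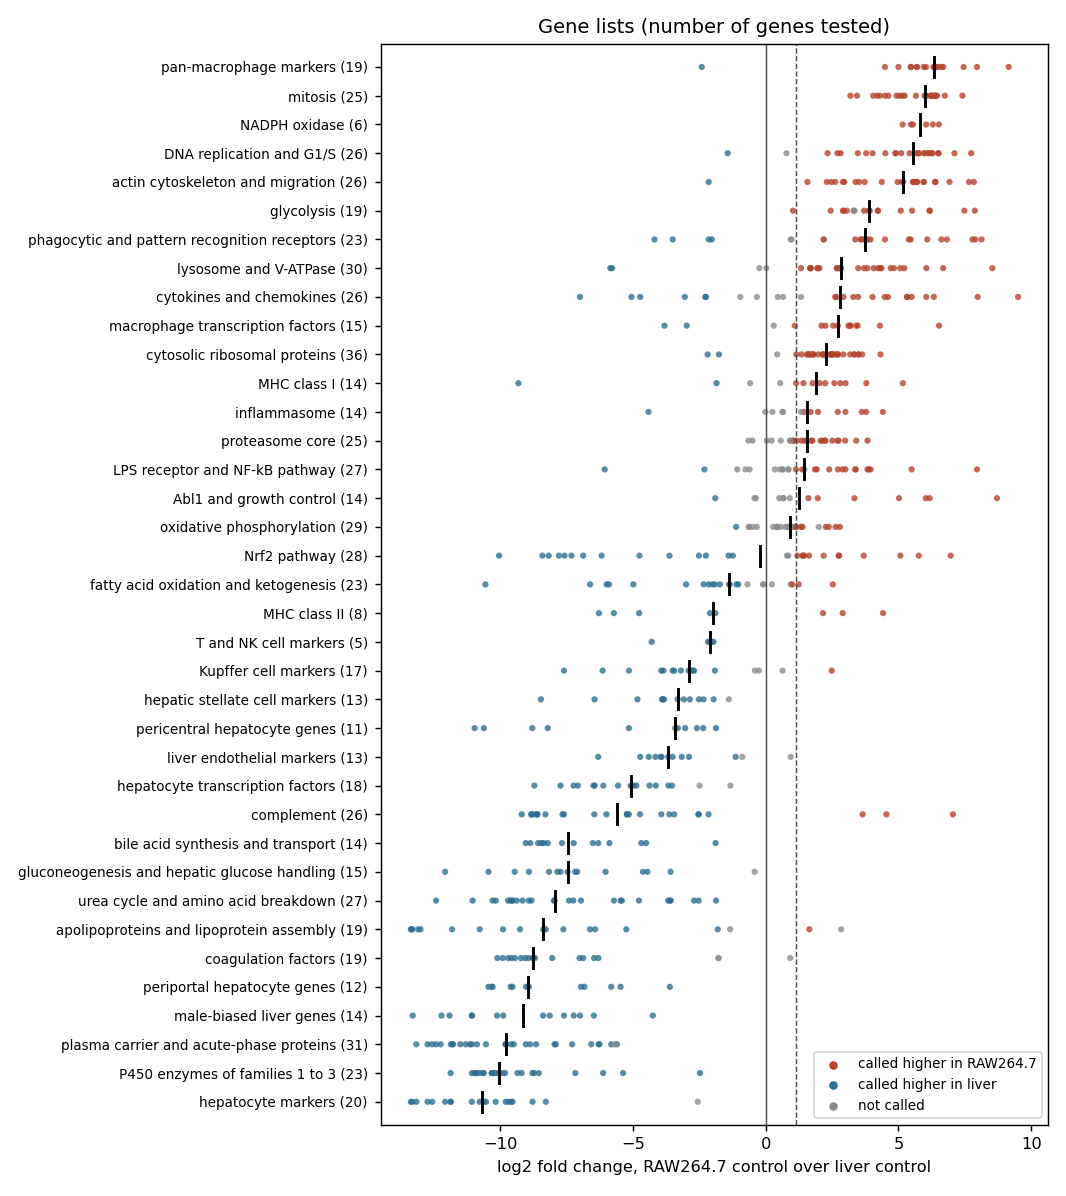
Log2FC (RAW264.7 over liver, x axis) of the tested genes of each list (y axis), with 1 point per gene coloured by its call, a bar at the list's median, the number tested after the list's name and a dashed line at the all-gene median of 1.14. Hepatocyte lists lie left of 0, mitosis and macrophage lists to the right, and oxidative phosphorylation around the dashed line (median 0.90).

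The other cells of whole liver were detected as low, liver-sided genes. Of 13 endothelial genes 11 were higher in liver, with Clec4g, a lectin of sinusoids, at 36.2, 41.4 and 39.9 TPM and listed at 0 in RAW264.7. Fcgr2b, an Fc receptor that sinusoidal cells and macrophages share, was at 71.3, 87.4 and 69.5 TPM in RAW264.7 and 22.5, 48.6 and 55.1 TPM in liver and was not called. Of 13 stellate cell genes 12 were higher in liver, led by Dcn, which encodes the proteoglycan decorin, at 0.0887, 0.137 and 0.046 TPM in RAW264.7 and 291, 169 and 183 TPM in liver (Log2FC -8.47, SE 0.24, adjusted P-value 9.18e-07). Colec11 was above 0 in liver library 1 alone. Eng of the endothelial list lost its call without RAW264.7 library 1 or 3 or liver library 2 or 3 (adjusted P-value 0.0118 to 0.0176), and Ecm1 of the stellate list without any 1 library other than liver 1 (0.0123 to 0.0288). Genes of the bile duct cells were near the filter, where 2 of 8 were tested and both were higher in liver, with Sox9 at 0, 0.0572 and 0.0766 TPM in RAW264.7 and 9.74, 10.7 and 10.4 TPM in liver. For T and NK cells 5 of 12 listed genes were tested and 5 were higher in liver, for B cells 3 of 7 and 3, and for neutrophils 2 of 10 and 1. In RAW264.7 the T and NK, B cell and bile duct lists summed to 1.01 to 1.47, 0.21 to 0.56 and 0.057 to 0.090 TPM. The tested genes of these lists thus passed the filter through liver, which fixed their direction in advance, so their counts are not a test. The B cell genes Igj and Pax5 lost their calls without any 1 library other than liver 1 (adjusted P-value 0.0293 to 0.0351 and 0.0171 to 0.022), and Cd3g of the T cell list lost its call without any 1 RAW264.7 library or liver library 2 (0.0104 to 0.0151). Cd3d was at 0.317, 0.457 and 0.329 TPM in RAW264.7 and 12.1, 21 and 17.5 TPM in liver, and Cxcr2 at 1.56, 1.5 and 1.27 TPM in RAW264.7 and 34.9, 68.3 and 61.3 TPM in liver, while the neutrophil genes Mpo and Ltf were at or near 0. Red cell genes were detected in liver, where Hba-a2, an alpha globin, was at 1192, 2192 and 2551 TPM and Alas2, which starts haem synthesis in red cells, at 90.5, 71.2 and 96.1 TPM. The summed level per library was 159 to 274 TPM in liver against 89.2 to 115 TPM in RAW264.7 for the endothelial list, and 375 to 428 TPM against 17.2 to 31 TPM for stellate cells. For Kupffer cells it was 335 to 417 TPM in liver against 64.5 to 161 TPM in RAW264.7, and much of it came from C6, at 108, 98.2 and 88.5 TPM in liver, and Id3, at 39.7, 139 and 42.4 TPM in RAW264.7 and 151, 48.8 and 54.5 TPM in liver. The erythroid genes summed to 1408 to 3129 TPM in liver and to less than 1 TPM in RAW264.7. The part of these cells in the liver values of genes that several cell types share was not tested.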

How the data were processed

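RNA of 3 RAW264.7 and 3 liver control libraries was sequenced at BGI. The authors used kallisto 0.45.0 for pseudoalignment against mm9 RefSeq transcripts and tximport for gene sums. The deposited FPKM values, in a table for each source, came from DESeq2 1.20.0. The deposited comparison tables hold the authors' fold changes and P-values and were not used, nor were 12 value columns of LPS and LPS+MIC-1 libraries. The columns carry no replicate number, so libraries are numbered by their order in each table.

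Because the tables were normalized separately, each control column was rescaled alone to a sum of 1000000 over the genes in both tables (TPM). This removes a factor that multiplies all genes of a table alike. Factors that differ between genes, and the effect of the most abundant genes on the sum, remain. Genes with a mean FPKM above 1 in either source were tested on log2(TPM + 0.5) with limma 3.58.1 in R 4.3.3 (eBayes with trend, 3 against 3 libraries, Benjamini-Hochberg over 11945 genes), and a gene was called at an adjusted P-value under 0.01 with an absolute Log2FC over 1. Reads per gene are not analysed here, and the depth was estimated from the steps between low FPKM values of transcripts of at least 2000 bases; 79.7 to 84.0% of these values were whole within 0.1 reads. The low values are therefore more precise in RAW264.7 than in liver. In a test on simulated data for the 11945 genes, the fit called 55% of genes changed by 2 on the log2 scale and 84% of those changed by 5, 0 in the wrong direction, and 8 unchanged genes. The simulation gave both sources the RAW264.7 mean of each gene and changed 100 genes at each size, up and down equally. It could therefore not test errors of the scaling between sources, on which the counts in the data depended.

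The members and gene lists were chosen with earlier results of these data known. The genes named are the 10 most abundant and the 10 with the largest Log2FC of each source among called genes without overlap, members of 19 enzyme and protein families, and from each list up to 4 of the most abundant, those called against its expected side and its extremes; some of these are not reported here. Other list members in the text (such as Pycard, Timd4, Relb, Mki67 and Hnf4a) and the genes that varied among liver libraries were picked after their values were seen. Alternatives covered the scaling, the pseudocount, the filter, the fit and each library left out; array weights and a correction for GC content and length (11393 genes with a GENCODE length) were chosen after seeing the data. Promoter sequences came from RefSeq on GRCm38.p6. Python 3.11.15, pandas 2.3.3 and matplotlib 3.10.9 were used.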

Additional observations from a re-analysis of the deposited data

How the results depend on the processing

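The number of genes higher in RAW264.7 was 5649, and 3662 under scaling by the median of ratios. With the filter set to a mean FPKM above 1 in both sources, which leaves out genes of 1 source, 4574 genes were called and 771 were higher in liver, and with a mean above 5 in either, 1735 were higher in liver. When 1 library was left out, the genes called numbered 7431 to 8522, those higher in RAW264.7 4979 to 5670 and those higher in liver 2432 to 2903, and with RAW264.7 libraries 1 and 3 averaged to 1 sample, 5008 and 2451. The other alternatives kept each of these counts within 1.5 times its value. No paired analysis was possible because the columns carry no replicate number and the sources share no animal or culture.

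Of 258 genes named by the rule that had a fit, 211 kept their call under every one of the 15 alternatives that gave them a value (5 had none under the GC and length correction), 32 lost or gained a call, and 15 changed sign under at least 1, all of them uncalled before. Under the median of ratios the Log2FC was -0.58 for Acaca, -0.77 for Cebpe, -0.29 for Fabp4, -0.0086 for Fcgr2b, -0.46 for Ftl1, -0.31 for Hmgcs1, -0.32 for Nfkbia, -0.0093 for Pros1, -0.73 for Psmb3 and -0.52 for Rpl28. Quantile scaling gave -0.67 for Acaca, 0.088 for B2m, -0.86 for Cebpe, -0.36 for Fabp4, -0.34 for Hmgcs1 and -0.10 for Pros1. Equal sums without the top 50 genes of each source gave -0.23 for Acaca, -0.43 for Cebpe, -0.10 for Ftl1, -0.36 for Psmb3 and -0.16 for Rpl28, and the deposited FPKM -0.038 for Cebpe. The alternatives chosen after seeing the data gave 0.22 for Cox5b, 0.081 for Cox6b1 and 0.10 for Id3 with the GC and length correction, and -0.0089 for Cebpe and -0.21 for Fabp4 with array weights. Averaging RAW264.7 libraries 1 and 3 gave 0.034 for Id3. Leaving out 1 library gave -0.12 to 0.42 for Cebpe, -0.046 to 1.13 for Fabp4, -0.84 to 0.26 for Id3 and -1.35 to 0.93 for Slc37a4. Beyond the settings themselves, the cause was not tested.

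Liver libraries 2 and 3 were estimated at 4530000 and 4400000 fragments, so low genes are less precise there, and an exact 0 in those columns does not show that a gene is absent. Asgr1, Foxa2, Colec11 and Mlxipl rest on liver library 1. The 3 libraries of a source do not show how other cultures or cohorts of mice would differ.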

Other observations

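Some genes were abundant in both sources. Above a mean of 500 TPM in each were 77 genes, of which 43 were called higher in RAW264.7, 8 in liver and 26 were not called. Over all genes, 47.3% were called higher in RAW264.7 and 22.6% in liver. The calls in RAW264.7 depended in part on the scaling. Rpl35 had a Log2FC of 1.04, and 0.09 under the median of ratios, whereas Eef1a1 had 2.82 and 1.87. The 8 higher in liver were Mtrnr2l, Dbi, which encodes an acyl-CoA binding protein, Sod1, the cytosolic superoxide dismutase at 877, 827 and 814 TPM in RAW264.7 and 2598, 1707 and 1865 TPM in liver (Log2FC -1.27), and 5 genes of the respiratory chain, Ndufa3, Cox7c, Cox6c, Atp5h and Uqcrb. Among those not called, the chaperone Hsp90aa1 was at 683, 600.2 and 707 TPM in RAW264.7 and 708, 572 and 642 TPM in liver (Log2FC 0.05, and -0.90 under the median of ratios).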
